A study of Mus musculus with 6 samples.

Results

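The cytosolic ribosome of mouse neural stem and progenitor cells was followed through the messenger RNAs of its proteins, in 76 genes of 17254 gene identifiers. Of these, 46 encode proteins of the large (60S) subunit and 30 encode proteins of the small (40S) subunit. The members were chosen by name. They are the protein-coding genes called Rpl or Rps followed by a number, with or without a final a, plus Rplp0, Rplp1, Rplp2, Rpsa and Rps4x and without Rps27l, that had a mean expected count of at least 10 over the 6 libraries. All 76 candidates met that minimum, and the lowest, Rpl34, had a mean count of 24.5. The rule itself uses no difference between groups, but it was set with earlier results of these data known. Ribosomal proteins with other names, such as Rps3a1, Fau and Rack1, lie outside the rule and are described separately.

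The cells were grown in N2 medium with EGF and bFGF, the mitogens that keep neural progenitors dividing. The 3 conditions, with 2 libraries each, were control, PQ and NAC. PQ and NAC stand for 48 h treatments that the labels give only by these abbreviations, without a dose. The study asked how gene expression changes when the redox potential inside such cells is altered. Nothing in the labels says that replicate libraries are separate cultures. The p-values below then measure only how far replicate libraries differ, which may be technical. Strain, sex and age of the source animals are not given in the sources used here. Library totals ran from 9680436 to 10698241 expected counts. Neural stem and progenitor markers were abundant in every library, with a summed FPKM (a level per transcript length and library depth) of 3493 to 3558 in control, 3820 to 3880 in PQ and 2705 to 2784 in NAC. Summed neuron markers stood at 36.19 to 38.43 in control, 33.94 to 35.05 in PQ and 58.95 to 65.46 in NAC, and astrocyte markers at 4.39 to 4.63, 6.02 to 6.75 and 9.53 to 9.64. Both lists were highest in NAC. The neuron sum was mostly Map2, at 34.2 and 35.63 in control, 34.05 and 32.59 in PQ and 64.88 and 58.02 in NAC, while Tubb3 stood at 1.3 and 2.38, 0.47 and 0.72, and 0.32 and 0.44. Summed markers of microglia and blood stood at 1.98 to 2.05 in control, 3.01 to 3.05 in PQ and 3.48 to 4.5 in NAC. Those of oligodendrocytes stayed at or under 1.69, of fibroblasts and pericytes at or under 2.24 and of endothelium at or under 0.58. Among the defining markers Rbfox3 (neurons), Mog (oligodendrocytes) and Cldn5 (endothelium) were at 0 in all 6 libraries. The part of these shifts in the ribosomal protein results was not tested.

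Each ribosomal protein is needed in a single copy per subunit in most cases, so cells keep the many genes at levels of the same order. Their mRNAs are among the most abundant of a dividing cell, and most begin with a C followed by a run of pyrimidines, the 5′ terminal oligopyrimidine (TOP) tract. Through that tract the mTOR pathway and the RNA-binding protein Larp1 control how strongly these mRNAs are translated and how long they last. Many of the genes also carry small nucleolar RNAs (snoRNAs), which guide the modification of ribosomal RNA, inside their introns. In neural progenitors, proliferation depends on a high output of ribosomes.

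The tract itself is shown for members, most of which are described below. Each window is 30 bases around the annotated transcription start, 10 before it and 20 from it on, 5′ to 3′, from RefSeq on GRCm38.p6. Capitals mark a C at the start followed by at least 4 C or T. Rpl35, Rpl14, Rps6 and Rps18 are shown as examples of the tract, and Rpl15 for the longest run counted from the start among those shown, 13 bases. Rpsa and Rps28 are shown for windows without such a run near the annotated start. In Rpl39 the start base does not open a run, but such runs begin shortly before and shortly after it.
Rpl35, chr2:39005112-39005141, minus strand: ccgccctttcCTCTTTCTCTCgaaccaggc
Rpl14, chr9:120571507-120571536, plus strand: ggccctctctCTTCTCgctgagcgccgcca
Rps6, chr4:86857348-86857377, minus strand: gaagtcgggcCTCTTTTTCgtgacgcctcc
Rps18, chr17:33955646-33955675, minus strand: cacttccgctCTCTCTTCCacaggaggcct
Rpl15, chr14:18270967-18270996, minus strand: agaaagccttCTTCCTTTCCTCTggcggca
Rpsa, chr9:120127756-120127785, plus strand: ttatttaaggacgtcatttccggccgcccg
Rps28, chr17:33824543-33824572, minus strand: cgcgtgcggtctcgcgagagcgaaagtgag
Rpl39, chrX:37085203-37085232, minus strand: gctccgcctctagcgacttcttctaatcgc

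A promoter entry was matched for 56 of the 76 members. The annotated start opened such a tract in 13 of the 56, 23.21%, against 3.08% of 10218 tested genes with an entry and 3.01% of all 27025 genes with one. A tract beginning within 10 bases of the annotated start was found in 60.71% of members, against 36.98% of tested genes. In the promoter windows, 250 bases before to 50 after the start, searched on both strands, CCGGAAG (the core bound by ETS factors of the GABP kind) was held by 23 of 56 members, 41.07% against 19.93% of tested genes. CACGTG, the E-box of Myc and its relatives, was held by 10.71% of members and 11.75% of tested genes, and AAGATGGC, bound by YY1, by 8.93% and 5.3%. These are matches of letters. None of these 3 motifs contains another.

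The genes are scattered over 19 chromosomes, with 4 members on X, and 29 of them hold 56 annotated snoRNA genes. In 10 members part of the exonic sequence also belongs to a tested gene on the opposite strand, from 4.4% of Rpl15 to 48.7% of Rps25 and 55.4% of Rpl23a. Whether strand was used in counting is not given in the sources used here, and without it reads of such pairs cannot be told apart.

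Levels were compared between genes only as FPKM, the deposited value per length. The median member stood at 559.8 FPKM, against 11.08 for the median tested gene. The median was 546.2 for the large and 590.1 for the small subunit. Of the 76 members 68 lay between 200 and 1200 FPKM, as the plot of levels by library shows. The 6 highest by the mean of the 3 groups were Rpl23a at 1607, Rpl41 at 1460, Rps26 at 1453, Rpl26 at 1169, Rpl35 at 1134 and Rps24 at 1100 FPKM. Rpl41 encodes the shortest ribosomal protein, Rps26 binds mRNA at the exit channel, and Rpl23a, Rpl26 and Rpl35 sit around the mouth of the tunnel through which the new protein leaves. The exonic overlap of Rpl23a with Tlcd1 covers most of its length, so its place at the top can hold reads of Tlcd1.

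**Figure D1:**
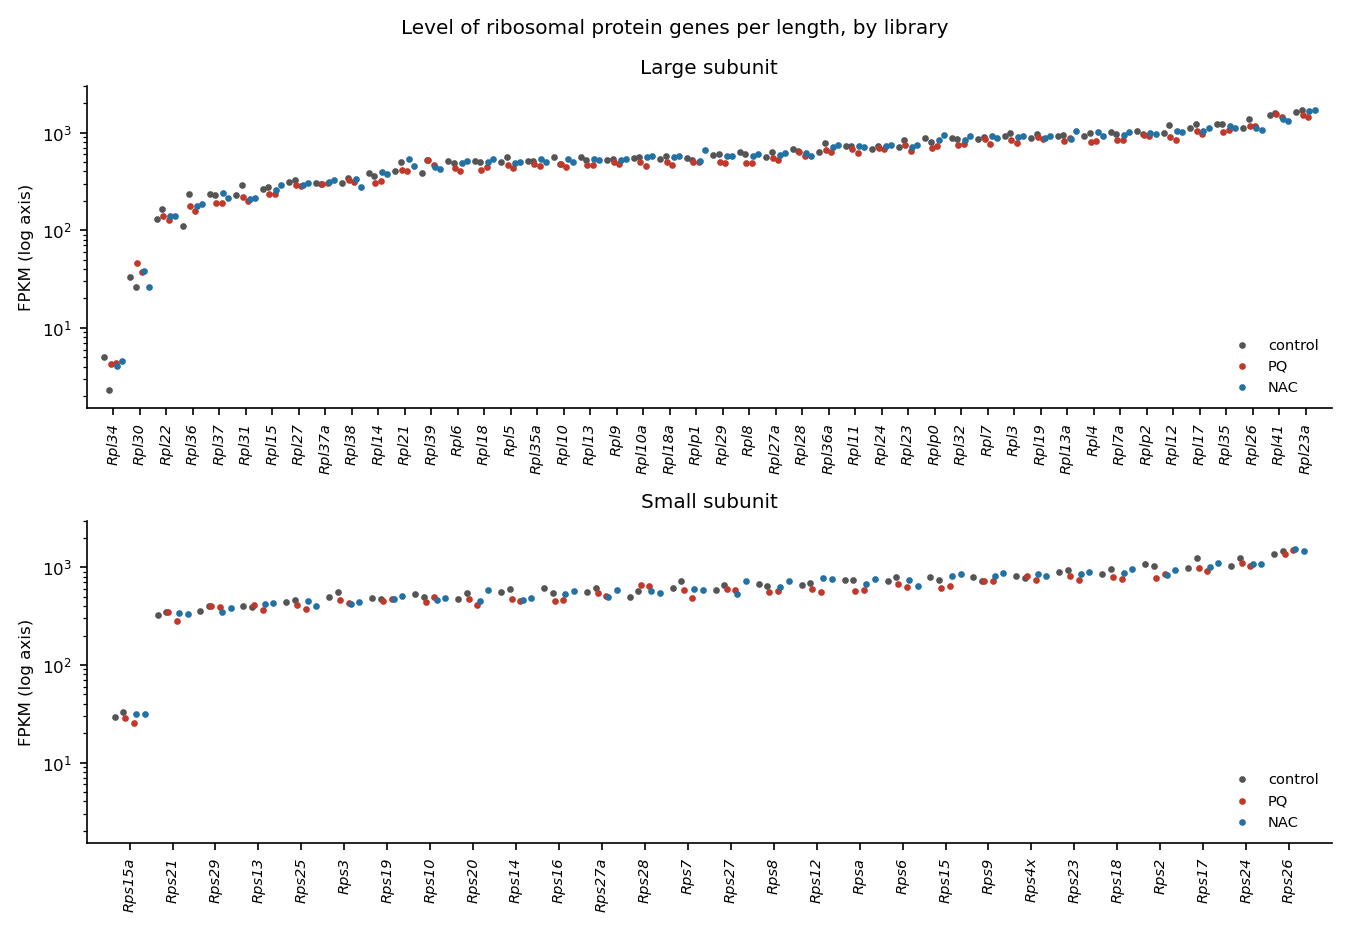
FPKM of 74 of the 76 members in each of the 6 libraries on a log axis, large and small subunit apart and ordered by mean level, with points for control, PQ and NAC libraries. Most genes lie between 200 and 1200 FPKM, and Rpl34, Rps15a and Rpl30 stand far below the rest.

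The 6 lowest members were Rpl34 at 4.11, Rps15a at 29.9, Rpl30 at 34.7, Rpl22 at 141, Rpl36 at 174 and Rpl37 at 216 FPKM. For 2 of these the tables hold a near-identical locus beside the gene. Rpl34-ps1 differs from Rpl34 at 2 of 354 aligned bases (99.4% identical) and carried a mean of 1747 counts where Rpl34 carried 24.5. Rps15a-ps6 (98.7% identical) and Rps15a-ps4 (97.0%) carried means of 1253 and 691.9 counts beside 1571 for Rps15a, whose FPKM is also divided by a listed length of 5158 bases. Rpl31 stood at 227 FPKM with a mean of 2356 counts, beside 1608 on Rpl31-ps12 (98.9% identical). The level and the changes of these 3 members are therefore uncertain, since the counting could split reads between copies. Counts were fractional, with a tolerance of 0.005, in 24 members, Rpl30 and Rps2 among them, and whole in the other 52.

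Apart from Rpl34, Rpl36 differed most between libraries of a group, and it was chosen for description after its values were seen. Its FPKM was 112 in control replicate 1 and 234 in control replicate 2, with 177 and 158 in PQ and 176 and 186 in NAC. The treated libraries all lay between the control libraries, so no direction can be read for this gene. Its log2 fold change in PQ (Rpl36, PQ against control) was -0.08 ± 0.20 with all libraries, -0.52 without control replicate 1 and 0.56 without control replicate 2.

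In bulk RNA a lower share can come from fewer cells of a type or from less RNA per cell, and these cannot be told apart. The 76 genes took 3.75% and 3.95% of all counts in the control libraries, 3.44% and 3.33% in PQ, and 3.71% and 3.81% in NAC. Both PQ libraries lay below the other 4, and the NAC libraries lay between or beside the control libraries. As means the shares were 3.85% ± 0.14 (SD, n = 2) in control, 3.38% ± 0.08 in PQ and 3.76% ± 0.067 in NAC. With 2 libraries against 2 no exact test can reach the threshold of 0.05, so these differences carry no p.

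**Figure D2:**
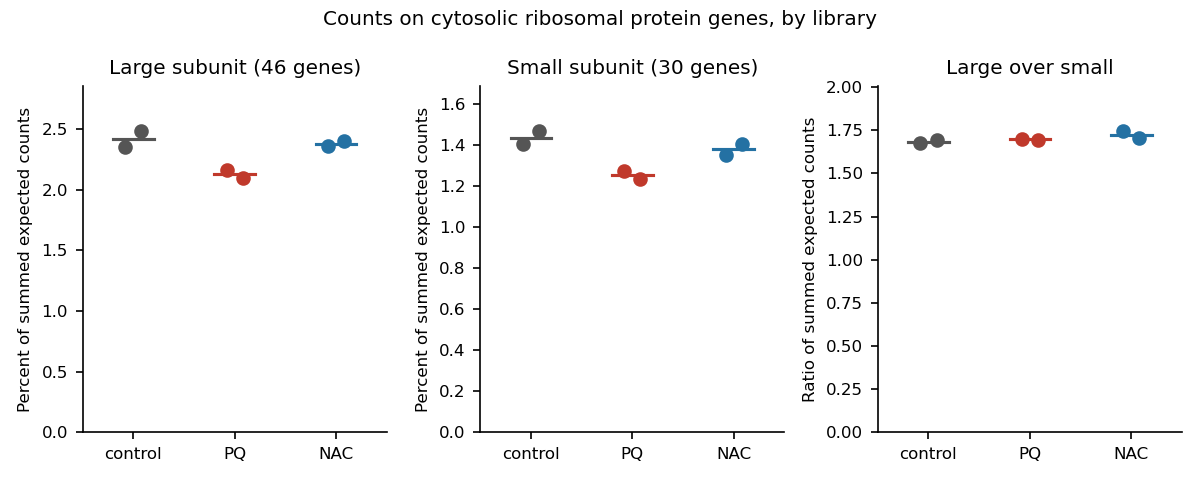
Percent of all expected counts on the members in each library, for the large and the small subunit, with a point per library and a line at the group mean, and the ratio of the 2 shares in a panel of its own. Both subunits are lowest in the PQ libraries, at 2.17% and 2.09% for the large and 1.28% and 1.23% for the small subunit.

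Large-subunit genes took 2.35% and 2.48% of counts in control, 2.17% and 2.09% in PQ and 2.36% and 2.40% in NAC. Small-subunit genes took 1.40% and 1.47%, 1.28% and 1.23%, and 1.35% and 1.41%. The ratio of large to small was 1.67 and 1.69 in control, 1.70 and 1.69 in PQ and 1.74 and 1.70 in NAC, and the widest gap within a group was the one in NAC.

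Ribosomal protein mRNAs had lower levels in PQ than in control, by a small amount and with most of the genes on the same side. In edgeR's quasi-likelihood test with Benjamini-Hochberg adjustment, 19 of the 76 members fell in PQ, 12 of 46 in the large and 7 of 30 in the small subunit, against 8.8% of all 12813 tested genes. None rose, against 9.07% of all tested genes, with 2 members above control at an unadjusted p under 0.05 and 0 by DESeq2. The estimate was below 0 in 71 members (50.4% of all tested genes). Both PQ libraries lay below both control libraries in 54 members and above them in 2, against 28.2% and 29.0% of tested genes. The median log2 fold change was -0.21, 13.6% lower than control, with -0.20 for the large and -0.23 for the small subunit and 0.00 for all genes. DESeq2 called 23 members lower. Without PQ replicate 1 the count was 4, without PQ replicate 2 it was 2 and without control replicate 2 it was 7. With limma on log2 FPKM values plus 1 it was 5, and 0 where that fit had no filter on low values. In a fit without a library the group concerned has 1 library left, which is assumed to vary like the other groups. The medians of both subunits stayed below 0 in each of these fits.

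**Figure D3:**
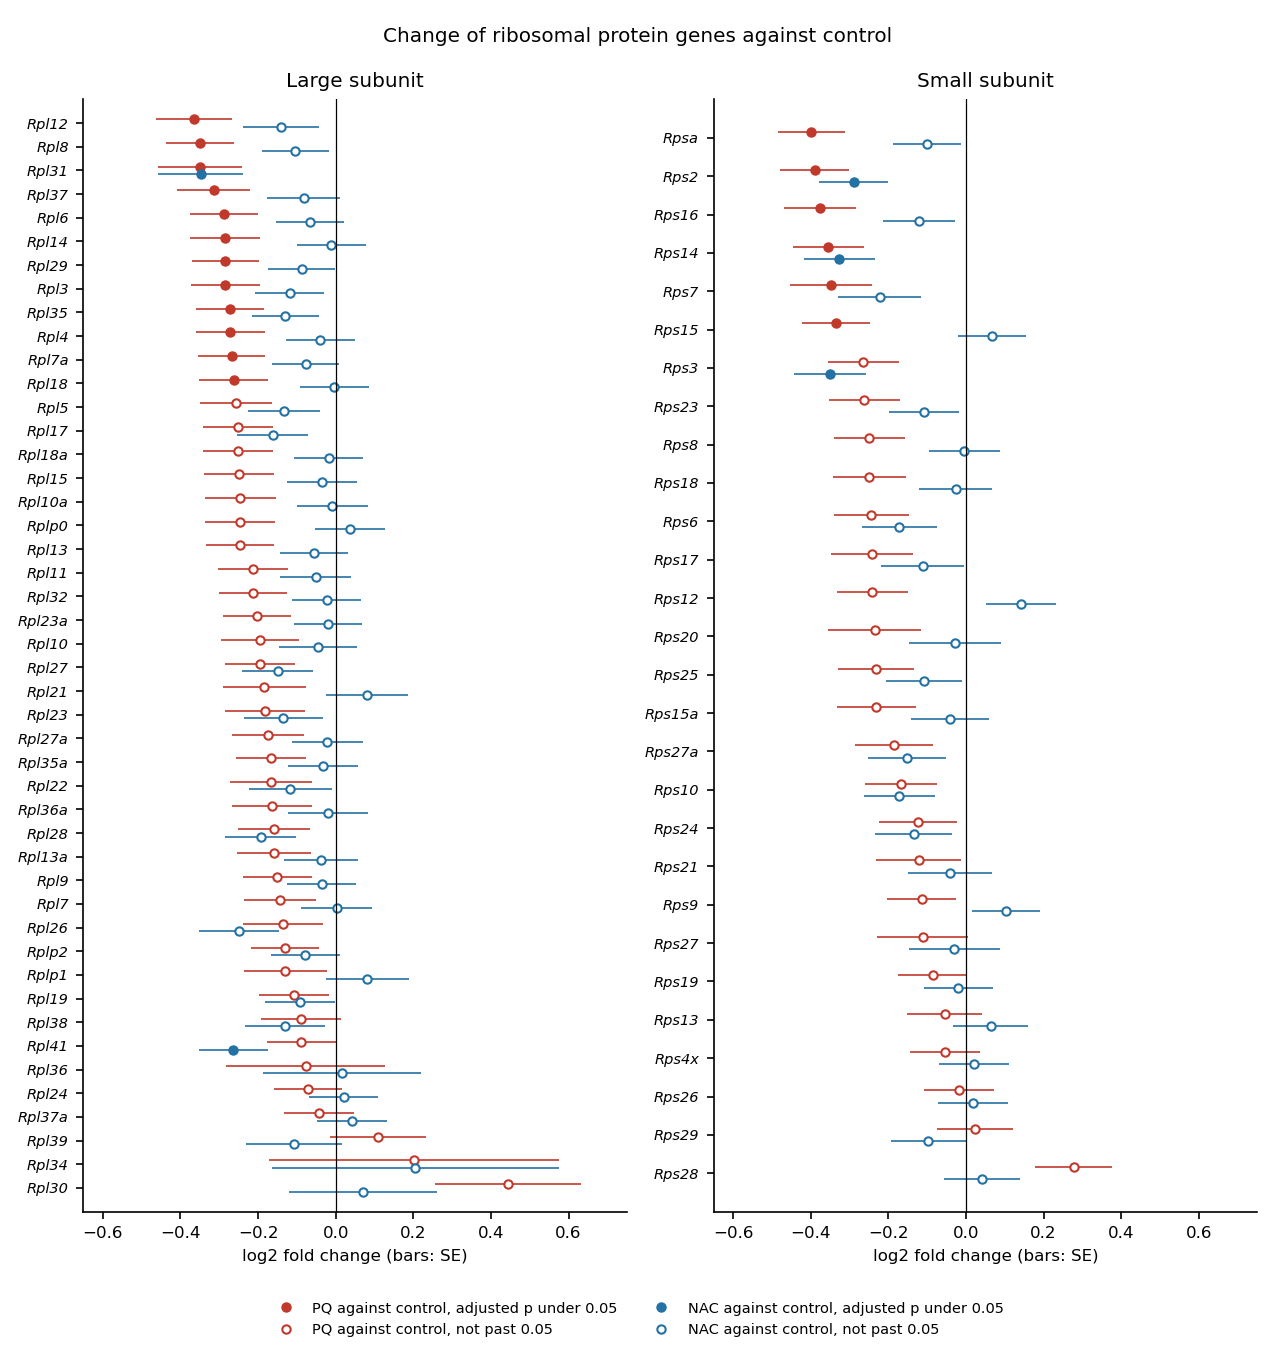
Log2 fold change of 74 members, with its standard error, for PQ and for NAC against control, large and small subunit apart and genes past the threshold marked. Most PQ estimates against control lie between -0.40 and 0, those of NAC lie on both sides of 0, and Rpl30 and Rps28 have the most positive estimates in PQ.

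The largest decrease was in Rpsa (chr9:120127766-120132369, plus strand, GRCm38), a 40S protein also known as the laminin receptor and needed for pre-40S maturation. Its CPM (the count relative to the library's total, scaled by the trimmed mean of M-values, TMM) was 1408 and 1409 in control, 1065 and 1073 in PQ and 1248 and 1381 in NAC. The PQ libraries lay below the other 4 without overlap. The log2 fold change against control was -0.40 ± 0.09 (SE) with an adjusted p of 0.0039 in edgeR, and it passed in all 6 fits that left out a library, with a highest adjusted p of 0.047, but not in limma without a filter (0.089).

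Rps2 (chr17:24718121-24721927, plus strand) lies where mRNA enters the ribosome. Its CPM was 1068 and 1028 in control, 776 and 824 in PQ and 818 and 896 in NAC. Both treated groups lay below control, at log2 fold changes of -0.39 ± 0.09 in PQ (edgeR adjusted p 0.005) and -0.29 ± 0.09 in NAC (0.029). In PQ the call was lost without PQ replicate 1, at an adjusted p of 0.066, and in limma without a filter, at 0.12.

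Rps16 (chr7:28350689-28352698, plus strand), whose tail reaches the decoding centre, had a CPM of 378 and 340 in control, 277 and 276 in PQ and 318 and 342 in NAC. The PQ libraries were lowest, and the NAC range overlapped control. Its log2 fold change in PQ was -0.38 ± 0.09 (edgeR adjusted p 0.0083). The call was lost without PQ replicate 1, PQ replicate 2 or control replicate 1, with a highest adjusted p of 0.089.

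Rpl12 (chr2:32961712-32964045, plus strand), at the base of the stalk that recruits elongation factors, had a CPM of 626 and 750 in control, 556 and 512 in PQ and 636 and 611 in NAC. PQ lay below both other groups, and the control libraries were far apart. Its log2 fold change was -0.37 ± 0.10 (edgeR adjusted p 0.015), and the call was lost without PQ replicate 2 or control replicate 2, at up to 0.18.

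Rps14, a protein of the small-subunit platform whose human counterpart is lost in 5q deletion syndrome, had a CPM of 325 and 357 in control, 276 and 258 in PQ and 268 and 276 in NAC. Both treated groups lay below control and overlapped each other. Its log2 fold change in PQ was -0.36 ± 0.09 (edgeR adjusted p 0.011), lost without PQ replicate 2 or control replicate 2 at up to 0.16.

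Rpl8, a core protein near the peptidyl transferase centre, had a CPM of 535 and 514 in control, 415 and 409 in PQ and 476 and 500 in NAC. The 3 groups did not overlap, with PQ lowest and control highest. The log2 fold change in PQ was -0.35 ± 0.09 (edgeR adjusted p 0.0091), lost without PQ replicate 1 or PQ replicate 2 at up to 0.10.

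Rps15 (chr10:80292431-80294114, plus strand) is required for export of the pre-40S particle from the nucleus. Its CPM was 395 and 378 in control, 303 and 310 in PQ and 397 and 415 in NAC. PQ was lowest and the NAC libraries lay just above the control libraries. The log2 fold change was -0.33 ± 0.09 (edgeR adjusted p 0.013), lost without either PQ library or control replicate 1 at up to 0.10. Rpl37, a 60S protein that can also bind Mdm2, had a CPM of 203 and 197 in control, 163 and 158 in PQ and 200 and 177 in NAC. PQ was again lowest, at -0.31 ± 0.10 (edgeR adjusted p 0.028), and the call was lost without any of the 4 PQ and control libraries, at up to 0.21.

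The other members called lower in PQ included Rpl31, Rps7, Rpl6, Rpl14, Rpl29, Rpl3, Rpl35, Rpl4, Rpl7a and Rpl18, with log2 fold changes from -0.35 ± 0.11 in Rpl31 to -0.26 ± 0.09 in Rpl18. Their edgeR adjusted p ran from 0.03 in Rps7, Rpl29 and Rpl6 to 0.048 in Rpl18. Rpl18 and Rpl7a passed in 0 of the 6 fits with a library left out. With the counts of Rpl31-ps12 added, Rpl31 no longer passed.

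The estimate was above 0 in only 5 members, and none of them passed the test. Rps28 (chr17:33823036-33824562, minus strand), a small-subunit protein at the mRNA exit, had a CPM of 148 and 172 in control, 199 and 189 in PQ and 170 and 159 in NAC. The PQ libraries were the highest, at a log2 fold change of 0.28 ± 0.10 (edgeR adjusted p 0.06). Exons of Kank3 on the other strand cover 11.7% of its length.

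Rpl30 (chr15:34440505-34443276, minus strand), which in yeast represses its own splicing, had a CPM of only 18.2 and 14.2 in control, 24.7 and 19.6 in PQ and 20.3 and 13.7 in NAC. PQ lay above control but overlapped NAC, at 0.44 ± 0.19 (edgeR adjusted p 0.11). Rpl39, which lines the exit tunnel, stood at 0.11 ± 0.12 (0.60), and its sign turned to -0.11 without control replicate 1. Rpl34 stood at 0.20 ± 0.37 (0.76), turning to -0.07 with Rpl34-ps1 added, and Rps29 at 0.02 ± 0.10 (0.91).

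Members with known extra roles were read out as a panel. Rpl5 and Rpl11, which with 5S rRNA bind Mdm2 when ribosome assembly fails, had log2 fold changes in PQ of -0.26 ± 0.09 (edgeR adjusted p 0.063) and -0.21 ± 0.09 (0.12). Rpl5 stood at 1020 and 1161 CPM in control, 957 and 868 in PQ and 986 and 1002 in NAC, so both treated groups lay below control, without passing the test. Rps6, the substrate of S6 kinase, stood at -0.24 ± 0.10 (0.092), and the ubiquitin fusion Rps27a at -0.19 ± 0.10 (0.22). The stalk proteins were at -0.25 ± 0.09 for Rplp0 (0.068), -0.13 ± 0.11 for Rplp1 (0.45) and -0.13 ± 0.09 for Rplp2 (0.34).

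Of the remaining panel, Rpl10, which joins late and lets the subunits unite, stood at -0.19 ± 0.10 in PQ (edgeR adjusted p 0.20) and Rpl22, which has a close paralog, at -0.17 ± 0.11 (0.32). Rpl13a, known from interferon-gated translational silencing, stood at -0.16 ± 0.10 (0.29). Rps27, whose paralog Rps27l is a p53 target, stood at -0.11 ± 0.12 (0.57), the Diamond-Blackfan anaemia gene Rps19 at -0.09 ± 0.09 (0.57) and X-linked Rps4x at -0.05 ± 0.09 (0.74). Rpsa was the only panel member called in PQ.

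PQ replicate 2 was the lowest of the 6 libraries for 48 members and control replicate 2 the highest for 40. The median member stood at -0.25 in PQ replicate 2 and -0.15 in PQ replicate 1 on the log2 scale against the control mean, and at 0.04 in control replicate 2. The libraries of a group differed by a median of 0.08 in control and -0.09 in PQ (replicate 2 minus replicate 1), with 60 of 76 members lower in PQ replicate 2. The gap between the groups, at a median of -0.21, was larger than either.

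**Figure D4:**
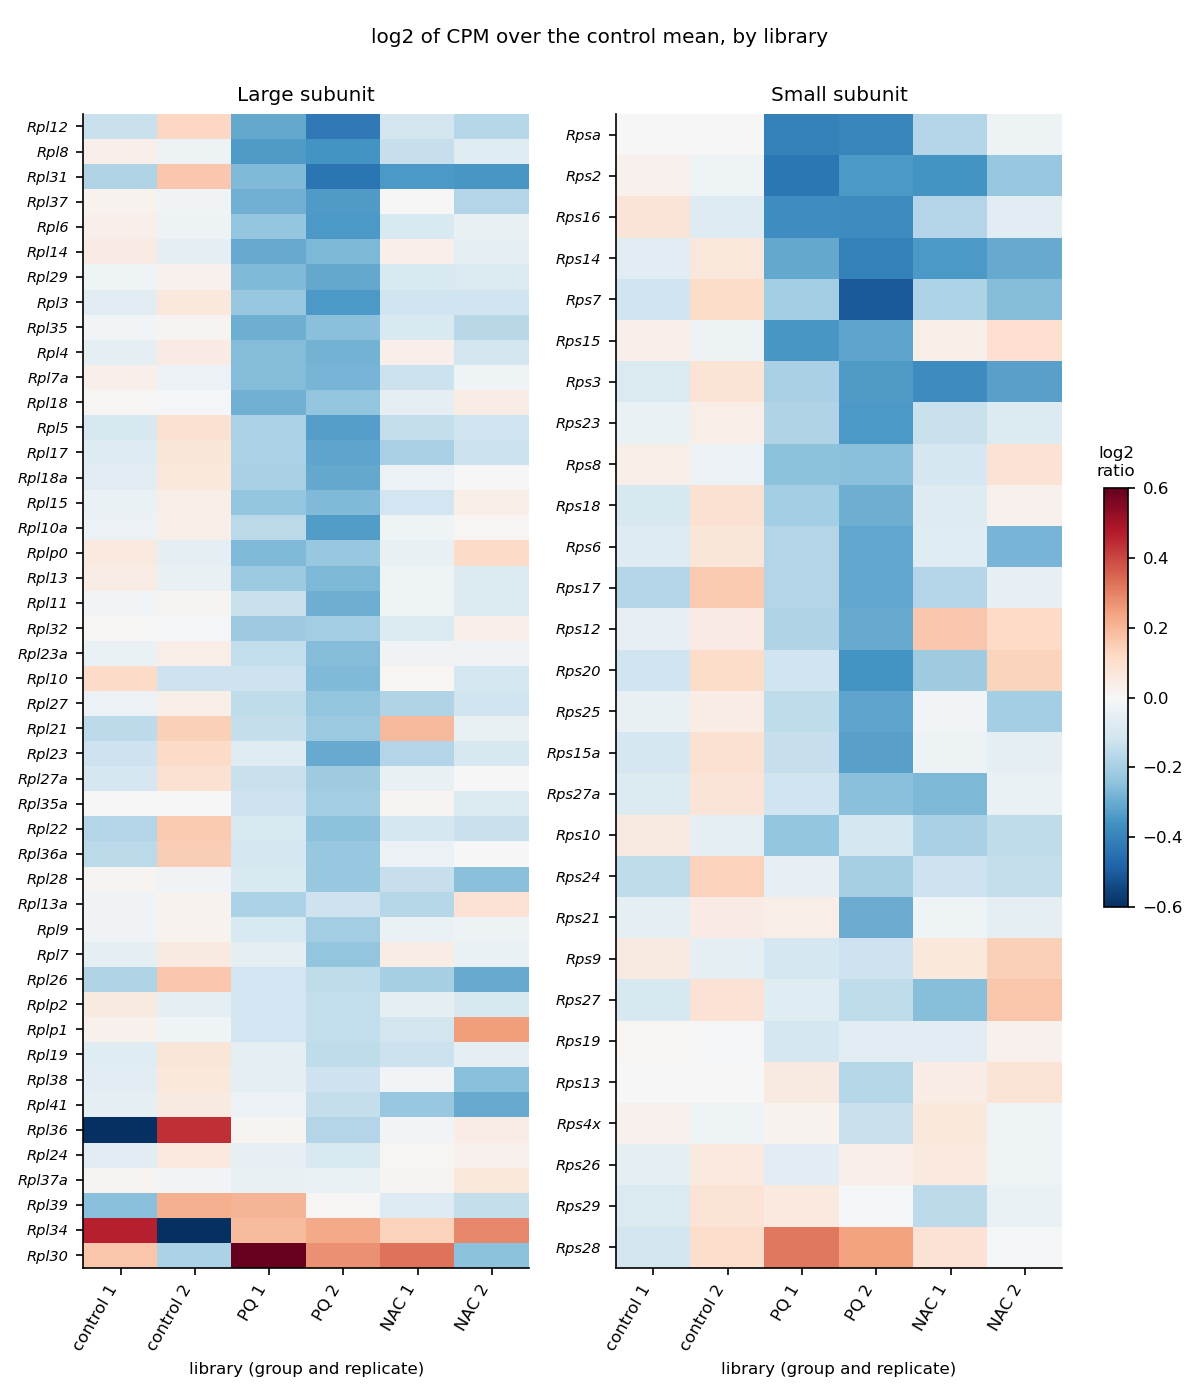
Log2 ratio of CPM to the control mean for 74 members (rows) in each of the 6 libraries (columns), with colours ending at ±0.6. Over all 76 members PQ replicate 2 is lowest for 48 and control replicate 2 highest for 40, and the median member lies at -0.07 and -0.05 in the NAC libraries.

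Cells exposed to NAC differed from control in fewer ribosomal protein genes and had smaller differences. In edgeR's test 6 of 76 members fell, among them Rpl31, Rps2, Rps14, Rps3 and Rpl41, against 9.26% of all tested genes, and 0 rose, against 8.65%. At an unadjusted p under 0.05 none was higher and 7 were lower, and DESeq2 called 6 lower and 0 higher. The 6 are 2 of 46 in the large and 4 of 30 in the small subunit. The estimate was below 0 in 59 members (50.3% of all genes), and the NAC libraries lay below both control libraries in 23 and above them in 4, against 28.3% of tested genes each way. The median log2 fold change was -0.05, with -0.05 in the large and -0.07 in the small subunit. Scaled by library size alone, the estimate was below 0 in 38 members and 2 members were called, and all genes split into 1392 higher and 986 lower where TMM gave 1108 and 1186. Without NAC replicate 1 or NAC replicate 2 the count of members called was 0, and without control replicate 2 it was 1.

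Rps3 (chr7:99477896-99483709, minus strand), at the mRNA entry and also known for a role in DNA repair, had the smallest p. Its CPM was 950 and 1068 in control, 883 and 797 in PQ and 776 and 806 in NAC. Both treated groups lay below control and overlapped each other, at a log2 fold change of -0.35 ± 0.09 in NAC (edgeR adjusted p 0.012) and -0.26 ± 0.09 in PQ (0.056). Without control replicate 2, NAC replicate 1 or NAC replicate 2 the NAC call was lost, at up to 0.12.

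Rps14 in NAC stood at -0.33 ± 0.09 (edgeR adjusted p 0.018). Rpl31, beside the exit tunnel, had a CPM of 242 and 306 in control, 228 and 202 in PQ and 215 and 215 in NAC. Its treated libraries lay below control, at -0.35 ± 0.11 in NAC (edgeR adjusted p 0.033), with control libraries far apart. Without control replicate 2 that p was 0.38. Rpl41 had a CPM of 653 and 705 in control, 664 and 614 in PQ and 580 and 551 in NAC. NAC alone lay below control, at -0.26 ± 0.09 with an edgeR adjusted p of 0.0495, just inside the threshold. Rpl31, Rps2 and Rps14 passed in both treatments, which were compared with the same 2 control libraries. With the counts of Rpl31-ps12 added, Rpl31 passed in neither.

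The most positive NAC estimates, none of them called, were Rpl34 at 0.21 ± 0.37 (edgeR adjusted p 0.76), Rps12 at 0.14 ± 0.09 (0.31), Rps9 at 0.10 ± 0.09 (0.46) and Rplp1 at 0.08 ± 0.11 (0.66). Without NAC replicate 2 the estimate of Rplp1 was -0.11.

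Set directly against NAC, PQ held less mRNA of 9 members. They included Rps15, Rps12, Rpsa, Rplp0, Rpl14, Rpl18, Rpl8 and Rps16, with 4 of 46 in the large and 5 of 30 in the small subunit. The edgeR test called 15.1% of all genes lower in this comparison, so the share of members, 11.8%, was below the background. None was higher, against 15.5%, with 1 at an unadjusted p under 0.05 and 0 by DESeq2, which called 12 lower. The estimate was below 0 in 65 members (49.8% of all genes), and the PQ libraries lay below both NAC libraries in 43 and above them in 5, against 32.9% and 33.1%. The median was -0.13, with -0.15 in the large and -0.11 in the small subunit. The count was 1 without PQ replicate 2, 2 without PQ replicate 1, 3 without NAC replicate 2 and 15 without either control library.

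Rps15, with the values given above, had the smallest p, at -0.40 ± 0.09 (edgeR adjusted p 0.0018), and passed in all 6 fits that left out a library. Rps12 (chr10:23785183-23787383, minus strand), a small-subunit protein that hosts 3 snoRNA genes, had a CPM of 337 and 360 in control, 307 and 283 in PQ and 390 and 379 in NAC. The 3 groups did not overlap, with NAC highest and PQ lowest, at -0.38 ± 0.09 for PQ against NAC (edgeR adjusted p 0.0034). Without PQ replicate 2 that p was 0.071.

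Rplp0 (chr5:115559467-115563729, plus strand), the stalk protein that anchors Rplp1 and Rplp2 and is often used as a reference gene, had a CPM of 1189 and 1095 in control, 949 and 976 in PQ and 1107 and 1235 in NAC. PQ was lowest and NAC overlapped control. Against NAC it stood at -0.28 ± 0.09 (edgeR adjusted p 0.024), and the call was lost without either PQ library or NAC replicate 2 at up to 0.22. Rpsa stood at -0.30 ± 0.09 (edgeR adjusted p 0.014), lost without either PQ library or NAC replicate 2 at up to 0.16.

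Against NAC, Rpl14, Rpl18, Rpl8 and Rps16 ranged from -0.27 ± 0.09 (edgeR adjusted p 0.027) in Rpl14 to -0.25 ± 0.09 (0.039) in Rpl8. Each of these 4 lost its call when any 1 PQ or NAC library was left out, at up to 0.25. The most positive estimates were Rpl30 at 0.37 ± 0.18 (edgeR adjusted p 0.14), Rps28 at 0.24 ± 0.10 (0.079), Rpl39 at 0.22 ± 0.12 (0.20) and Rpl41 at 0.18 ± 0.09 (0.15).

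Across both comparisons of PQ, 6 members passed in each: Rpsa, Rps15, Rps16, Rpl8, Rpl14 and Rpl18. Both comparisons use the same PQ libraries, and the share of all tested genes that passed in both was not computed. Both PQ libraries lay below all other 4 libraries in 39 members, against 18.3% of all tested genes. In no comparison did 52 of the 76 pass, and the matching share of all tested genes was not computed.

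Members with longer transcripts had the more negative PQ estimates. The 61 members over 500 bases had a median of -0.24 against control with 18 called lower, and the 15 of 500 bases or less had a median of -0.11 with 1 called lower, Rpl35. These are 29.51% and 6.67% of members, against 8.84% and 2.15% of all tested genes of the same length classes, and the difference between the classes was not tested. Over the 76 members the correlation of log2 length with the PQ change was -0.39 (Pearson) and -0.47 (Spearman), and over all 12813 tested genes -0.03 and -0.02. Members share their libraries and are not replicates, so this is a description. For NAC against control the values were -0.13 and -0.15, and for PQ against NAC -0.30 and -0.33. All tested genes of 500 bases or less, of which there are 93, had a median of 0.04 in PQ and those over 500 bases a median of 0.00. RNA integrity was not given in the sources used here, and its part in this pattern was not tested.

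**Figure D5:**
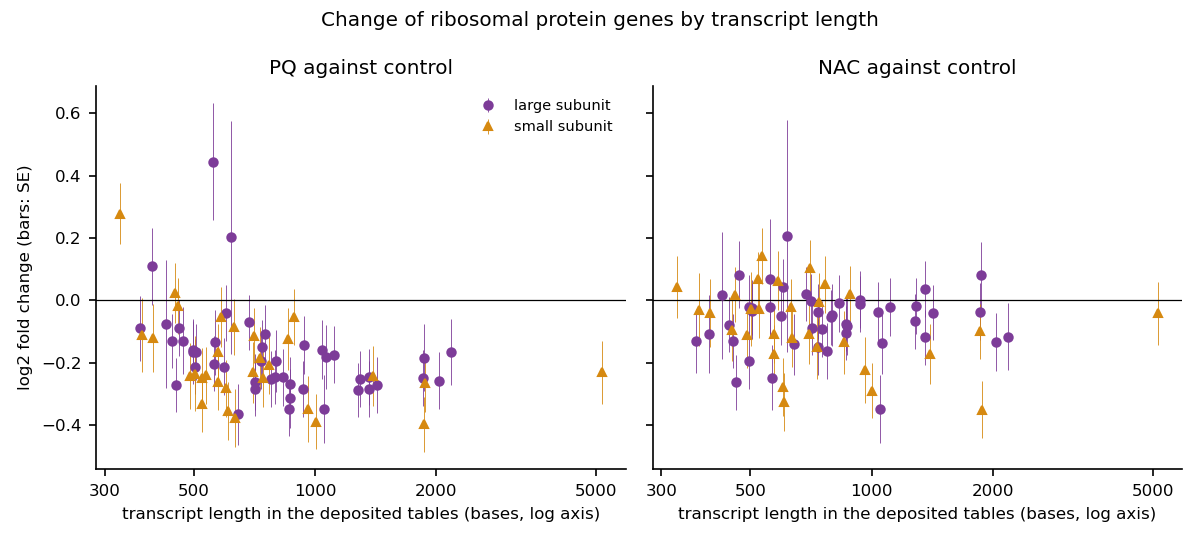
Log2 fold change with its standard error for the 76 members against transcript length in bases on a log axis, for PQ and for NAC against control, with subunits in separate colours and shapes. In PQ the shortest members, such as Rps28 and Rpl39, lie near or above 0 and most members over 500 bases lie between -0.40 and 0.

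The 29 members that hold a snoRNA gene had a median PQ change of -0.25 with 10 lower, and the 47 without one a median of -0.17 with 9 lower. The 13 members with a tract at the annotated start had a median of -0.17 with 2 lower, Rpl14 and Rpl35, and the 43 with a promoter entry but no such tract a median of -0.20 with 12 lower. The 52 members with whole counts had a median of -0.22 with 14 lower, and the 24 with fractional counts a median of -0.18 with 5 lower. The shares called lower were 34.48% with and 19.15% without a snoRNA gene, and 15.38% with and 27.91% without a start tract. They were 26.92% with whole and 20.83% with fractional counts, against 8.8% of all tested genes. No difference between these subsets was tested.

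Genes around the ribosome were read out from lists that were also chosen with earlier results of these data known. Of 11 ribosomal proteins and paralogs outside the name rule 7 were tested. Rack1, the 40S scaffold of signalling kinases, fell in PQ from 684 and 688 CPM to 579 and 535 (log2 fold change -0.30 ± 0.09, edgeR adjusted p 0.033). Rps27l, the paralog of Rps27 and a p53 target, rose from 72.8 and 87.8 to 110 and 111 (0.46 ± 0.10, edgeR adjusted p 0.0046), and stood at 68.2 and 68.5 in NAC. Its PQ libraries were above the other 4, while those of Rps27, at 206 and 195 CPM, overlapped the control values of 203 and 230. In NAC 1 fell, Rpl36al, a close copy of Rpl36a whose reads the counting could split, from 186 and 183 to 147 and 150 (-0.31 ± 0.09, edgeR adjusted p 0.023). Rack1 lost its call without any of the 4 PQ and control libraries (up to 0.28), Rpl36al without any of the 4 NAC and control libraries (0.14), and Rps27l without PQ replicate 2 (0.056) and in limma without a filter. Fau, which encodes a 40S protein fused to a ubiquitin-like one, stood at -0.16 ± 0.10 in PQ (edgeR adjusted p 0.31) and -0.23 ± 0.10 in NAC (0.13). Rps3a1, in none of the lists, stood at -0.16 ± 0.09 in PQ (edgeR adjusted p 0.27).

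Of 20 translation factors and other genes with TOP mRNAs, 2 fell and 0 rose in PQ, with a median of -0.18 beside -0.21 for the members. The share that fell, 10.0%, is near the 8.8% of all tested genes. At an unadjusted p under 0.05 6 were lower and 0 higher, and DESeq2 called 2 lower and 0 higher. Eef2, which moves the ribosome along the mRNA, went from 2633 and 2480 CPM in control to 2100 and 2056 (-0.30 ± 0.08, edgeR adjusted p 0.02). Eef1a1, which delivers aminoacyl-tRNA, went from 9020 and 9574 to 8388 and 6660 (-0.31 ± 0.10, edgeR adjusted p 0.042) and stood at 9867 and 10055 in NAC. In NAC against control 0 of 20 were called in either direction by edgeR or DESeq2, with 1 each way at an unadjusted p under 0.05, and a median of -0.04. Against NAC, 3 of the 20 were lower in PQ, Eef1a1, Eef1b2 and Eef2. That share is near the 15.1% of all tested genes called lower in this comparison. In PQ against control Eef2 lost its call without either PQ library or control replicate 1 (up to 0.15), and Eef1a1 without PQ replicate 2, control replicate 2 or either NAC library (0.46).

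Of 38 ribosome assembly factors 4 fell in PQ and 1 rose. The share that fell, 10.53%, is near the 8.8% of all tested genes, and the share that rose, 2.63%, is below the 9.07%. The 4 were Nop56 (-0.48 ± 0.10, edgeR adjusted p 0.0038), Nop58 (-0.37 ± 0.11, 0.026), Dkc1 (-0.54 ± 0.12, 0.0042) and Gar1 (-0.45 ± 0.14, 0.033). All belong to the snoRNA-bound particles that modify ribosomal RNA, Nop56 and Nop58 in the box C/D and Dkc1 and Gar1 in the box H/ACA class. The list also holds other proteins of these particles, which were not called in PQ against control or against NAC. Dkc1 stood at 78.8 and 84.1 CPM in control, 58.3 and 53.7 in PQ and 103 and 78.5 in NAC. The PQ libraries were lowest and NAC overlapped control. The same 4 were lower in PQ than in NAC, 10.53% of the list, where 15.1% of all tested genes were. Sbds, which releases Eif6 from the 60S subunit, rose in PQ (0.35 ± 0.11, edgeR adjusted p 0.035). In NAC Nip7, a 60S assembly factor, fell (-0.35 ± 0.11, edgeR adjusted p 0.04). Without PQ replicate 2 Dkc1 was at 0.079, and without PQ replicate 1 Nop56 was at 0.067. Nop58 and Sbds lost their calls without either PQ library or 1 control library (up to 0.25 and 0.23) and Gar1 without any of those 4 (0.19), and Nip7 passed in 1 of 6 such fits.

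The list for RNA polymerase I, which makes the ribosomal RNA, holds 22 names, of which 19 were tested. Some genes stand in it under both an older and a newer symbol, so the untested names need not be separate genes. In PQ 2 rose, 10.53% against 9.07% of all tested genes, and 0 fell, against 8.8%. Polr1e, a subunit of the polymerase, had a log2 fold change of 0.80 ± 0.15 (edgeR adjusted p 0.0013), and the initiation factor Rrn3 one of 0.31 ± 0.09 (0.031). In NAC 3 rose, 15.79% against 8.65% of all tested genes, and 0 fell, against 9.26%. The 3 were Polr2f (0.49 ± 0.13, edgeR adjusted p 0.014), Taf1c (0.75 ± 0.24, 0.038) and Ubtf (0.27 ± 0.09, 0.048). Beside both counts of 0, 2 genes were lower at an unadjusted p under 0.05 and 0 by DESeq2. Polr1e passed in all 6 fits with a library left out and Ubtf in 0. Rrn3 lost its call without any of the 4 PQ and control libraries (up to 0.21), and Polr2f and Taf1c without either NAC library or control replicate 2 (0.092 and 0.24).

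Of 20 genes that control TOP mRNAs 6 fell in PQ, where 8.8% of all tested genes did, and 0 rose, also 0 by DESeq2 and 0 at an unadjusted p under 0.05. Larp1, the TOP-binding protein itself, stood at 247 and 269 CPM in control, 199 and 209 in PQ and 215 and 216 in NAC (PQ -0.34 ± 0.09, edgeR adjusted p 0.015; NAC -0.26 ± 0.09, 0.059). Eif4ebp1, an mTOR target that holds back cap-dependent translation, stood at 133 and 185 in control, 100 and 99.1 in PQ and 57.1 and 71.3 in NAC. It fell in both treatments, by 0.68 ± 0.13 (edgeR adjusted p 0.0016) and 1.31 ± 0.14 (2.13e-06) on the log2 scale. Ddit4, an inhibitor of mTOR, did too, at -0.56 ± 0.12 (edgeR adjusted p 0.0044) and -1.53 ± 0.13 (2.45e-07). In NAC Sesn2, another such inhibitor, fell (-1.35 ± 0.16, edgeR adjusted p 1.03e-05), and Myc, which drives ribosome production, rose (0.71 ± 0.10, 5.02e-05). Eif4ebp1 in both treatments, and Ddit4, Sesn2 and Myc in NAC, passed in all 6 fits with a library left out. In PQ Ddit4 was at 0.11 without PQ replicate 2, and Larp1 at up to 0.13 without either PQ library or control replicate 2.

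Of 5 genes listed for p53 and ribosomal proteins, 2 rose in PQ, where 9.07% of all tested genes did. They were Cdkn1a, at 1.17 ± 0.09 (edgeR adjusted p 4.25e-07), and Mdm2, at 0.66 ± 0.10 (0.00017). The same 2 fell in NAC, where 9.26% of all tested genes did, at -0.98 ± 0.09 (edgeR adjusted p 8.03e-07) and -0.45 ± 0.10 (0.0037). Unbound ribosomal proteins were not measured, and their part in these changes was not tested. Trp53 rose in NAC (0.32 ± 0.10, edgeR adjusted p 0.037), a call kept in 1 of 6 fits with a library left out, where Cdkn1a, Mdm2 and Mki67 in PQ and Cdkn1a and Mdm2 in NAC kept all 6. The proliferation gene Mki67 stood at 1082 and 1055 CPM in control, 520 and 450 in PQ and 1366 and 1190 in NAC, falling in PQ (-1.14 ± 0.10, edgeR adjusted p 7.94e-07) but not called in NAC (0.26 ± 0.10, 0.074). The 5 markers of dividing cells summed to 408 to 413 FPKM in control, 230 to 254 in PQ and 456 to 494 in NAC. The part of this shift, too, was not tested.

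The 78 mitochondrial ribosomal proteins, which serve a separate ribosome, were read out beside the cytosolic ones. In PQ 1 rose, Mrps6 (0.66 ± 0.10, edgeR adjusted p 0.00013), and 2 fell, Mrpl48 (-0.34 ± 0.10, 0.033) and Mrpl2 (-0.39 ± 0.13, 0.04), with a median of -0.03. The share that fell, 2.56%, was below the 8.8% of all tested genes, and the share that rose, 1.28%, below the 9.07%. In NAC 7 fell and 1 rose, with a median of -0.16, and the 8.97% that fell is near the 9.26% of all tested genes. The share that rose was 1.28%, against 8.65% of all tested genes. The strongest was Mrpl38, at 68.2 and 67.7 CPM in control, 69.4 and 72.5 in PQ and 45.6 and 47.2 in NAC (-0.55 ± 0.10, edgeR adjusted p 0.00072). Mrps6 and Mrpl38 passed in all 6 fits with a library left out, Mrpl48 in 3 and Mrpl2 in 1. Against NAC 14 were higher in PQ, 17.95% beside 15.5% of all tested genes, and 3 lower, 3.85% beside 15.1%. The median was 0.09, where the cytosolic members had a median of -0.13. No test of the difference between the 2 lists was run.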

How the data were processed

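TRIZOL was used to isolate total RNA. Depletion of rRNA and selection by oligo dT are both listed, without telling which of them was used, followed by N6 priming and BGISEQ-500 sequencing, per the labels' protocols. RSEM, HISAT2 2.0.4, Bowtie2 2.2.5 and mm10 are listed without roles, per the submitters' processing notes. The authors deposited, for each gene, an expected count (an estimate that need not be whole) and its FPKM, per the file headers. Genes at 0 are not listed and were set to 0. Of 17254 identifiers 17199 were named.

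The members and all lists were chosen with earlier results of these data known. Expected counts were rounded, filtered (edgeR filterByExpr, minimum count 10, minimum total 15, 12813 genes left), scaled by TMM and fitted with edgeR 4.0.16 (R 4.3.3, limma 3.58.1) by quasi-likelihood with all 6 libraries and 3 residual degrees of freedom. The threshold was 0.05 after Benjamini-Hochberg adjustment over all genes tested in a comparison. Adjusted p in the text are edgeR's unless another tool is named. A standard error is the log2 fold change over the square root of F. Library totals of 9680436 to 10698241 make counting error small for all members but Rpl34 and Rpl30. Alternatives were DESeq2 1.42.0, other scalings, filters and fits, limma on log2 FPKM, added pseudogene counts, each library left out and, chosen after seeing the data, a replicate block. A group with a library left out has 1 library, assumed to vary like the other groups.

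Named members are, per comparison, up to 8 called per direction by p and the 4 most extreme estimates each way, the 6 highest and lowest by FPKM, and a panel of known roles. Of other lists, up to 3 called genes per direction, or all where 5 or fewer, were chosen for naming. Not all of these are named for NAC against control and PQ against NAC. In PQ against NAC the RNA polymerase I list had 2 genes higher and 2 lower (10.53% each). The list for control of TOP mRNAs had 3 higher and 5 lower (15.0% and 25.0%). Of all tested genes 15.5% were higher and 15.1% lower. Rpl36 was added after its values were seen. Some genes that counts and medians include are not reported here by name. Coordinates are from GENCODE M21 and start windows from RefSeq GRCm38.p6, the same build as mm10. Figures used Python 3.11.15 and matplotlib 3.10.9.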

Additional observations from a re-analysis of the deposited data

How the results depend on the processing

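The direction of both subunit medians and of the share of counts in PQ, against control and against NAC, was the same in every alternative run, while the counts of called members moved. For PQ against control, members called higher numbered 1 with library size alone and 2 without the low-count filter. Members called lower numbered 5 with limma on log2 FPKM plus 0.1 or plus 1, and 0 with limma without a filter, which called 702 of all genes. With a library left out, all genes called ran from 829 to 2181, members lower from 2 to 21 and members higher from 0 to 3, with medians from -0.240 to -0.146 in the large and -0.295 to -0.166 in the small subunit.

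For NAC against control, members lower numbered 2 with library size alone (medians -0.002 and -0.022 for large and small) and 0 with each of the 3 limma fits (-0.0 and -0.02), and limma without a filter called 972 of all genes. With a library left out the ranges were 1338 to 2157 genes, 0 to 6 members lower and 0 to 1 higher, with medians from -0.075 to -0.028 and -0.116 to -0.003.

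For PQ against NAC, members lower numbered 16 with library size alone, 14 without the low-count filter, 14 with only the 2 groups compared (1 higher) and 2 with limma without a filter, which called 2514 of all genes. With a library left out the ranges were 2427 to 4442 genes, 1 to 15 lower and 0 to 1 higher, with medians from -0.197 to -0.090 and -0.205 to -0.063. The cause of these shifts was not tested.

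Signs turned for members near 0. In PQ against control Rpl36 was at 0.048 in each limma fit and ran from -0.520 to 0.559 with a library left out, Rpl34 was at -0.068 with its pseudogene added and ran from -0.257 to 0.900, Rpl39 from -0.107 to 0.361, Rpl22 from -0.325 to 0.011 and Rps4x from -0.133 to 0.022. In NAC against control Rpl34 was at -0.026 with its pseudogene added and ran from -0.250 to 0.907, Rpl36 from -0.423 to 0.656 and Rplp1 from -0.108 to 0.252. For named genes, called or not, settings other than leaving out a library kept direction and call status in 1223 values. These settings lost the call in 155 values and turned the sign in 5. Many of the 1223 belong to genes that were not called in the main fit. With a library left out, the sign turned in 10 values, and many more values lost the call.

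The sample titles number the libraries in 2 consecutive sets, each with 1 library of every group, and nothing in the labels says that a set shares a culture or day. Replicate gaps over 12813 genes correlated at -0.08 between control and PQ, -0.15 between control and NAC and 0.12 between PQ and NAC (replicate 2 minus replicate 1), and 2 sets are too few to read a pairing from these values. A fit with the sets as a replicate block, added after seeing the data and with 2 residual degrees of freedom, called 8 members lower in PQ against control, 2 in NAC against control and 3 in PQ against NAC, with 1842, 1901 and 3485 of all genes called. Its medians for the large and the small subunit were -0.193 and -0.232, -0.048 and -0.07, and -0.145 and -0.11.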
